A study of Homo sapiens with 2 samples.

Results

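The genes described here are 55 named genes of the lysosome and of autophagy, chosen by name and matched to the table through their Ensembl identifiers. They are hydrolases, activator proteins and membrane proteins of the lysosome, the TFEB family of transcription factors, and genes of the autophagy machinery. All 55 were found among the 58302 gene identifiers of the table. Of these, 54 were measured, defined as a level of at least 1 CPM (counts scaled to library size) in 1 or both libraries, out of 13231 measured genes. RNA came from HK-2, an immortalised proximal tubule line of human kidney, at passages 7 to 11 in medium with 10% serum. The cells received for 24 h an adenovirus that carried either the coding sequence of Bmal1, a transcription factor of the circadian clock, or green fluorescent protein (GFP) as the control. The titles Ad-Bmal1 and Ad-GFP name the libraries, with 1 library per group, and the species of the Bmal1 sequence is not given in the sources used here. Both groups share the serum and the exposure to an adenovirus, and neither was left without virus. Both labels name HK-2 but spell that name out differently, and whether the 2 libraries hold 1 line was not tested.

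The lysosome is an acidic compartment in which hydrolases break down proteins, glycans and lipids. Its hydrolases reach it mostly through mannose 6-phosphate receptors, and the proton pump V-ATPase keeps it acidic. Autophagy delivers cytoplasm to it inside a double membrane, built by an initiation complex, a conjugation system and small proteins of the ATG8 family, while receptors such as SQSTM1 pick the cargo. TFEB and its relatives bind the CLEAR element in promoters of many of these genes, and mTORC1 on the lysosome's surface holds them in check. In the proximal tubule the pathway is known for degrading filtered protein taken up by endocytosis.

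Counts are given in pairs throughout, the value of the library labelled Ad-GFP before that of the library labelled Ad-Bmal1. The libraries summed to 20032652 and 20051735 counts, so that 1 CPM stood for 20.3 and 19.8 counts. All ratios set the scaled level of the library labelled Ad-Bmal1 over that of its control. The human gene BMAL1 (ENSG00000133794) had 204 and 133 counts. Its ratio of 0.667 (95% counting interval 0.532 to 0.834) goes against the label if reads of the vector's sequence were counted for this gene. Whether they were was not tested, since the species of that sequence and the way of counting are not given. Higher and lower below therefore refer to the libraries as they are labelled. With 1 library per group there is no replicate check, no p-value and no SD. The intervals are exact conditional binomial (Clopper-Pearson) ones for counting error only, since reads that carry no molecular identifier do not each stand for a molecule. Of 12 proximal tubule markers 4 were measured, and the 12 summed to 781 and 975 CPM. Nearly all of that sum came from GGT1 (4473 and 4881 counts), PAX8 (6502 and 8529) and CDH6 (4769 and 5856). MME, the other measured marker, had 29 and 20 counts. Of the markers not measured, LRP2 was at 0 in both, CUBN had 8 and 2 counts, ANPEP 19 and 7 and SLC34A1 1 and 5. Of 12 leukocyte and macrophage markers 3 were measured, with summed levels of 90.5 and 69.2 CPM, and PTPRC, LYZ, CD163 and AIF1 were at 0 in both. The part of these differences in the results below was not tested, and fewer cells of a type cannot be told apart from less RNA per cell.

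The lysosome and autophagy genes as a whole were level between the libraries, with single members well apart. A member was counted as past the fold if its ratio was at least 1.3 or at most 0.769 and its interval excluded 1. NPC1 and NEU1 were past it on the higher side, 2 of 54 or 3.70%, where 9.35% of all measured genes were. GM2A, LIPA, NBR1, CTSB, CTSH and WIPI2 were past it on the lower side, 6 of 54 or 11.1%, where 9.29% of all measured genes were. Scaling to total counts gave 1 higher and 7 lower, and moved the shares of all genes to 7.95% and 10.9%. The share of members on the lower side is near that of all genes, and the share on the higher side is below it, on a count of 2. At 2-fold no member was higher, where 1.13% of all genes were, and GM2A alone was lower, where 1.74% were.

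Abundant genes have narrow intervals, so the same counts were taken among genes with at least 1000 counts over both libraries. Of 44 such members 2 were higher, or 4.55%, against 8.41% of the 5658 such genes. On the lower side there were 6, or 13.6%, against 5.07%. The median log2 ratio of the 54 measured members was -0.04, against 0.00 over all measured genes. In all, 25 members had a ratio above 1 and 29 a ratio below 1. The interval lay above 1 for 15 members, below 1 for 18, and held 1 for 21. Over all measured genes 23.8% had an interval above 1 and 21.6% one below 1, the background for the counts of intervals in each group that follows. Intervals exclude 1 more often among abundant genes. Of the 5658 genes with at least 1000 counts, 2103 had an interval above 1 and 1560 one below 1. Of the 44 such members, 15 had one above 1 and 17 one below 1. The counts of the 55 members summed to 234184 and 229305, a summed ratio of 1.00 (0.996 to 1.01). The same measure over all measured genes was 1.024. The total for the members was thus close to equal, but it leans on PSAP. That gene alone gave 61732 and 70721 of these counts, at a ratio of 1.17.

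**Figure D1:**
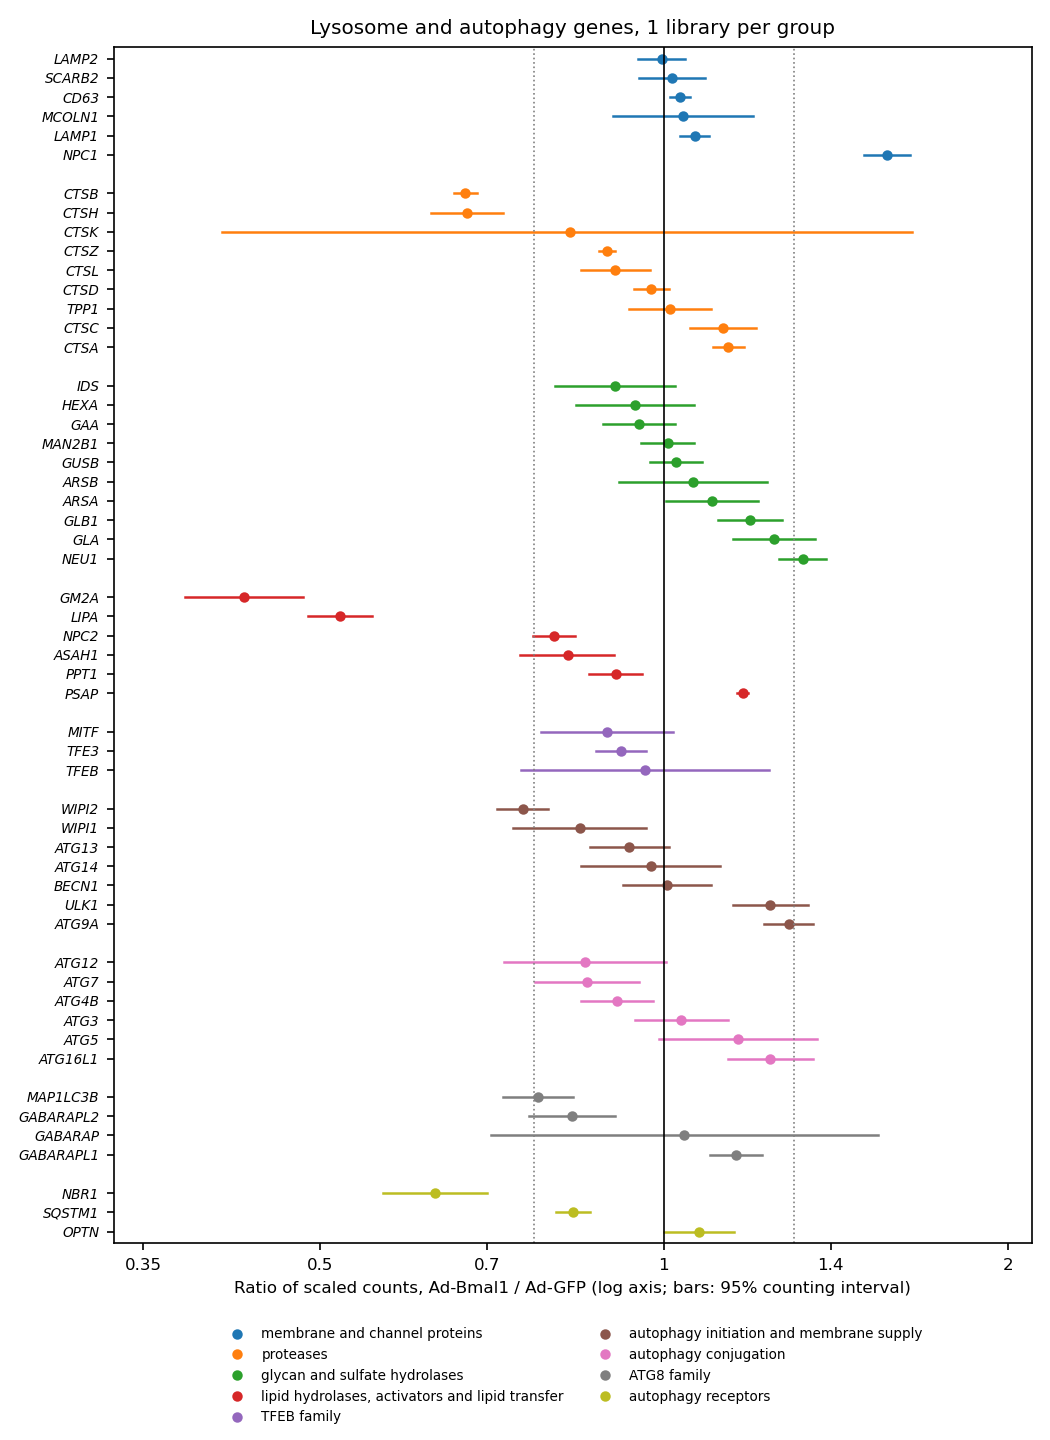
Ratio of each measured member (log axis, Ad-Bmal1 over Ad-GFP as labelled), coloured by role, with the 95% counting interval as a bar and the fold of 1.3 dotted. NPC1 at 1.57 and GM2A at 0.429 lie at the ends, and most members lie between 0.769 and 1.3.

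The promoters of 48 members were in a RefSeq table of 27305 promoters on GRCh38.p14, which spans 250 bases before to 50 bases from each RefSeq start. They were searched for 2 palindromic motifs, so that each match holds on both strands. CACGTG is the E-box core bound by CLOCK with BMAL1 and by the TFEB family, and the longer TCACGTGA, which contains it, is the core of the CLEAR element. CACGTG stood in 10 of the 48 member promoters (20.8%), in 7.43% of all promoters and in 10.4% of the promoters of measured genes. TCACGTGA stood in 6 member promoters (12.5%), in 1.04% of all promoters and in 2.01% of those of measured genes. Among lysosomal members 8 of 25 promoters held CACGTG, and among autophagy members 2 of 20 did. A match describes letters only and does not show a bound site.

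The stretches below are printed because they show the promoter with most matches (LAMP1), 1 with the longer motif alone (MCOLN1), the arrangement at CTSA and NEU1, which encode partner enzymes, and a member with a lower count and no match (WIPI2). Capitals mark CACGTG or TCACGTGA, read 5′ to 3′ on the gene's strand, from RefSeq on GRCh38.p14. The stretches are LAMP1 at chr13:113297039-113297248 (plus strand), MCOLN1 at chr19:7522424-7522633 (plus), CTSA at chr20:45891291-45891317 (plus), NEU1 at chr6:31862907-31863021 (minus) and WIPI2 at chr7:5190033-5190187 (plus).
LAMP1: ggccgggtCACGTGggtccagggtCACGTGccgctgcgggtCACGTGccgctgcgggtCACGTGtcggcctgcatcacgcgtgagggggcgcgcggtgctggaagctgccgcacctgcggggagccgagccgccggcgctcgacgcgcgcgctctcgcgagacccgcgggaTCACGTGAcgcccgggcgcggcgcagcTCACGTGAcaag
MCOLN1: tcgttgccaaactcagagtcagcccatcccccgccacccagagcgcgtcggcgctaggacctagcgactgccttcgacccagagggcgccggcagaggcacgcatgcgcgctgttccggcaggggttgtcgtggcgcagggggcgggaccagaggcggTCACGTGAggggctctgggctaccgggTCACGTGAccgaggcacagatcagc
CTSA: gtCACGTGgcgccggagtTCACGTGAc
NEU1: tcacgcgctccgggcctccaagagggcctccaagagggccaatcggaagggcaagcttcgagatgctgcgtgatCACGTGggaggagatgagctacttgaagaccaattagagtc
WIPI2: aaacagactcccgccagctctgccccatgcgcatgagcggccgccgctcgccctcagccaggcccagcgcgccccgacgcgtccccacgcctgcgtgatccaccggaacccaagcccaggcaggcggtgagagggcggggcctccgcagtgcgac
In LAMP1 the matches of CACGTG begin at -192, -176, -159, -142, -28 and -1 from the RefSeq start, and the last 2 lie within the longer motif. In MCOLN1 both matches of CACGTG, at -41 and -14, lie within the longer motif. CTSA has CACGTG at -42 and at -25, the latter within TCACGTGA, and NEU1 has it at -126. In GENCODE v29 the CTSA gene starts farther upstream, at 45890144, so the CTSA stretch printed lies inside the annotated gene. The other members with CACGTG were CD63, CLN3, CTSD, GAA, ATG14 and ATG3. Of these CTSD, GAA and ATG14 had ratios below 1, at 0.975, 0.951 and 0.974, while CD63 and ATG3 were above 1. NPC1, with the highest ratio of any measured member (1.57), had no match. The stretches printed therefore do not stand for the members as a whole.

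Members with and without the E-box core overlapped in their ratios. The 9 measured members with CACGTG had a median log2 ratio of 0.05 and ratios from 0.951 to 1.32, with 6 above 1 and 3 below. The 38 without it had a median of -0.11 and ratios from 0.429 to 1.57, with 17 above 1 and 21 below. With TCACGTGA the 5 measured members had a median of 0.05 and ratios from 0.951 to 1.14, and the 42 without it had -0.05. All values of the members with a motif lie inside the range of those without, and the groups were not tested against each other.

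**Figure D2:**
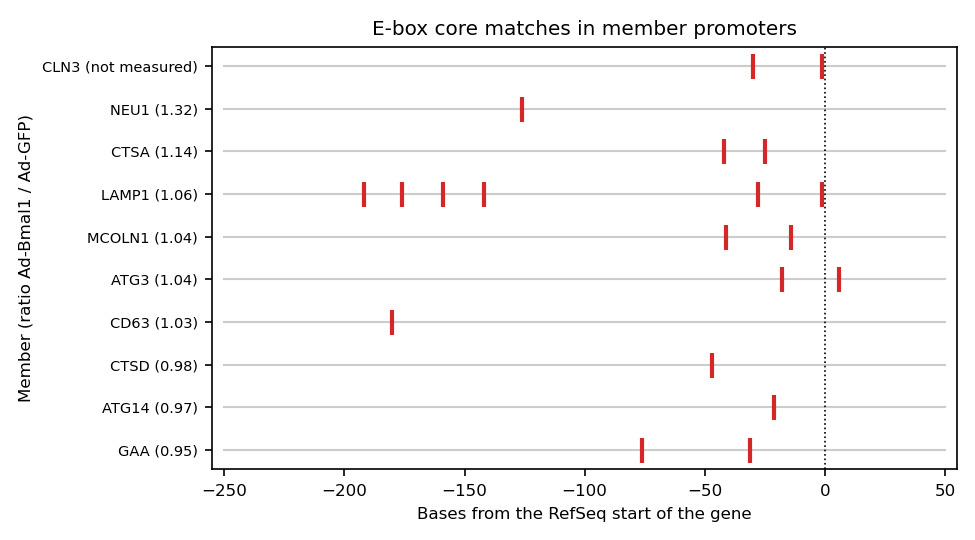
Position of each CACGTG match relative to the RefSeq start (bases) in the 10 member promoters that hold it, with each member's ratio beside its name. LAMP1 has 6 matches, 4 of them more than 100 bases before the start.

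Membrane and channel proteins were level or somewhat higher in the library labelled Ad-Bmal1. Of 7 listed genes 6 were measured, 5 had a ratio above 1, and 3 intervals lay above 1 and 0 below. NPC1, which moves cholesterol out of the lysosome (GRCh38, chromosome 18, 23506184 to 23586898), had 2936 and 4497 counts. Its ratio of 1.57 (1.496 to 1.64) was the highest of any measured member. NPC1 overlaps RMC1 on the opposite strand over 25624 bases. RMC1 had 448 and 596 counts, and the part of shared reads in the NPC1 ratio was not tested.

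CD63, a tetraspanin of late endosomes and lysosomes, had 18996 and 19162 counts and a ratio of 1.03 (1.01 to 1.05). LAMP1, a heavily glycosylated lining protein of the lysosomal membrane whose promoter is printed above, had 8960 and 9321 counts and a ratio of 1.06 (1.03 to 1.10). Its relative LAMP2 had 3564 and 3468 counts, a ratio of 0.996 (0.9499 to 1.04). SCARB2, which carries glucocerebrosidase to the lysosome, had 1749 and 1738 counts, and its interval held 1. The structural membrane proteins thus differed by far less than NPC1. MCOLN1, the calcium channel TRPML1, had 395 and 401 counts and a ratio of 1.04 (0.902 to 1.197). CLN3, the gene of juvenile Batten disease, had 3 and 9 counts, under 1 CPM in both libraries, and a same-strand gene listed at 0 in both overlaps it over 17988 bases. Whether the way reads were counted bears on its low value was not tested.

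The proteases were mixed, and the cysteine cathepsins CTSB and CTSH were past the fold on the lower side. Of 9 members, 4 had an interval below 1 and 2 an interval above 1. CTSB, an abundant cysteine protease, had 18880 and 12366 counts. Its ratio was 0.670 (0.655 to 0.686). CTSH, an aminopeptidase of the same family (chromosome 15, 78921058 to 78949574), had 1895 and 1246 counts and a ratio of 0.673 (0.626 to 0.723). CTSZ, a carboxypeptidase and the cathepsin with most counts, had 33711 and 29387 counts and a ratio of 0.892 (0.878 to 0.906). CTSL, an endopeptidase, had 1691 and 1499 counts and a ratio of 0.907 (0.846 to 0.973). Its near copy CTSV had 925 and 751 counts, and the pair summed gave a ratio of 0.880. Reads shared between the copies were not tested.

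The other proteases had intervals above 1 or holding 1. CTSA, a serine carboxypeptidase that protects NEU1 and GLB1, had 7342 and 8171 counts and a ratio of 1.14 (1.10 to 1.18). CTSC, which activates serine proteases of immune cells, had 1699 and 1871 counts and a ratio of 1.13 (1.05 to 1.204). CTSD, the main aspartic protease of the lysosome, had 6399 and 6098 counts and a ratio of 0.975 (0.941 to 1.01), and after removal of the trend on transcript length 1.02. TPP1, a tripeptidyl peptidase, had 1174 and 1162 counts and a ratio of 1.01. CTSK, known from bone-resorbing osteoclasts, had only 21 and 17 counts, too few to place its ratio of 0.828 (0.410 to 1.65) on either side of 1.

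A group of 10 cysteine cathepsins was put together after the values were seen, adding CTSF, CTSO, CTSS and CTSV to the 6 among the members, and CTSW was not looked at. Of the 10, 9 had a ratio below 1, and CTSC was the exception above 1. The interval of 7 lay below 1, where 21.6% of all measured genes had such an interval. Of the 5658 genes with at least 1000 counts, 1560 had one. The counts of the 10 cathepsins summed to 61520 and 48911, a ratio of 0.813 (0.804 to 0.823). CTSF had 1193 and 735 counts and a ratio of 0.630 (0.574 to 0.692). CTSS, best known from antigen-presenting cells, had 1462 and 1005 counts and a ratio of 0.703 (0.648 to 0.763). The leukocyte and macrophage markers were also lower in sum, at a ratio of 0.764. Nearly all of that sum came from CD74 (1127 and 885 counts), CSF1R (433 and 407, its interval holding 1) and LAPTM5 (258 and 65). PTPRC, LYZ, CD163 and AIF1 were at 0 in both libraries. A part of these markers in the cathepsin values was not tested.

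The glycan and sulfate hydrolases were level or higher, and no interval of the 10 lay below 1. Of them 7 had a ratio above 1, with 4 intervals above 1. NEU1, the lysosomal sialidase that removes sialic acid from glycans (chromosome 6, 31857659 to 31862906), had 3129 and 4045 counts. Its ratio of 1.32 (1.26 to 1.39) lay just inside the fold, and scaling to total counts gave 1.29, just outside it. GLA, the alpha-galactosidase lacking in Fabry disease, had 1045 and 1275 counts and a ratio of 1.25 (1.15 to 1.36), or 1.33 and past the fold once the trend on transcript length was removed. GLB1, the lysosomal beta-galactosidase, had 1705 and 1982 counts and a ratio of 1.19 (1.11 to 1.27). ARSA, the sulfatase lacking in metachromatic leukodystrophy, had 891 and 960 counts and a ratio of 1.10 (1.01 to 1.21).

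The remaining hydrolases of glycans were near 1. GUSB, beta-glucuronidase, had 2865 and 2869 counts and a ratio of 1.02 (0.973 to 1.08), and its pseudogenes had at most 65 counts. MAN2B1, an alpha-mannosidase, had 2791 and 2749 counts and a ratio of 1.01. GAA, which degrades glycogen, had 1532 and 1424 counts and a ratio of 0.951. HEXA, a subunit of beta-hexosaminidase, had 581 and 536 counts, IDS, iduronate sulfatase, had 575 and 509, and ARSB, a sulfatase of dermatan sulfate, had 353 and 366. Their intervals all held 1. HEXA and IDS each overlap a same-strand gene with at most 4 counts.

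CTSA, NEU1, GLB1 and GALNS, a sulfatase outside the members, are known to form a multienzyme complex in the lysosome. As a group put together after the values were seen, all 4 had an interval above 1. GALNS had 573 and 778 counts and a ratio of 1.39 (1.25 to 1.55). The counts of the 4 genes summed to 12749 and 14976, a ratio of 1.202 (1.17 to 1.23). CTSA has a 200-base overlap with PLTP on the opposite strand, which had 3658 and 3486 counts.

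Genes of lipid breakdown held the lowest member and the most abundant one. Of 6 members, 5 had an interval below 1 and PSAP alone had one above 1, and the median log2 ratio was -0.30. GM2A, the activator protein that presents GM2 ganglioside to beta-hexosaminidase A (chromosome 5, 151212150 to 151270440), had 939 and 394 counts. Its level was 2.33-fold lower (2.07 to 2.63) in the library labelled Ad-Bmal1, the lowest ratio of any measured member. CCDC69, which overlaps GM2A on the opposite strand, had 9 counts in each library. HEXA, the member that encodes a subunit of that enzyme, gave a ratio of 0.944, and its interval held 1.

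LIPA, the acid lipase that frees cholesterol from its esters (chromosome 10, 89213569 to 89414557), had 2821 and 1435 counts, a ratio of 0.520 (0.488 to 0.555). Its annotated span holds IFIT1, IFIT2 and IFIT3 on the opposite strand, each with at most 119 counts. NPC2, which hands the freed cholesterol to NPC1, had 4778 and 3742 counts and a ratio of 0.801 (0.768 to 0.837). Along the route by which the lysosome releases and exports cholesterol, LIPA and NPC2 were lower while NPC1 was higher. These 3 genes were put together as a group after their values were seen. Removal of the trend on length put NPC2 at 0.854.

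PSAP, the precursor of the saposin activator proteins, had 61732 and 70721 counts, the most of any member, and a ratio of 1.17 (1.16 to 1.18). Because of PSAP, the summed ratio of the lipid genes was 1.10 (1.09 to 1.11) although 5 of 6 were lower. ASAH1, acid ceramidase, had 984 and 792 counts and a ratio of 0.824 (0.749 to 0.905). PPT1, which removes palmitate from proteins, had 2926 and 2596 counts and a ratio of 0.908 (0.861 to 0.957). It overlaps CAP1 on the opposite strand, with 7945 and 8579 counts.

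In the TFEB family 1 of 3 intervals, that of TFE3, lay below 1, and none of the 3 was past the fold. TFE3, the member with most counts, had 3252 and 2917 counts and a ratio of 0.918 (0.873 to 0.965). MITF, known for its role in pigment cells, had 482 and 420 counts and a ratio of 0.892 (0.7804 to 1.02). TFEB itself had 136 and 128 counts and a ratio of 0.963 (0.751 to 1.24), so a difference within that interval was not detectable at this depth.

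Autophagy members were mixed, with 9 of 20 ratios above 1 and 11 below, and a median log2 ratio of -0.07. None was past the fold on the higher side, where 9.35% of all measured genes were. On the lower side 2 were, or 10%, near the 9.29% of all measured genes. Among 7 genes of initiation and membrane supply, WIPI2, which binds phosphoinositide on the forming membrane and recruits ATG16L1 (chromosome 7, 5190188 to 5233826), had 3456 and 2541 counts and a ratio of 0.752 (0.714 to 0.792). Its relative WIPI1 had 485 and 400 counts and a ratio of 0.844 (0.737 to 0.965). In the same group, 2 genes lay on the other side of 1. ATG9A, the scramblase that supplies membrane, had 2897 and 3641 counts and a ratio of 1.29 (1.22 to 1.35), just short of the fold. ULK1, the kinase that starts autophagy, had 1253 and 1517 counts and a ratio of 1.24 (1.15 to 1.34). BECN1 and ATG14 of the phosphoinositide kinase complex had ratios of 1.01 and 0.974, and ATG13, a partner of ULK1, had 0.933. The intervals of these 3 genes held 1, and BECN1 overlaps PSME3 on the opposite strand, which had 4374 and 5101 counts.

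The conjugation genes, which attach ATG8 proteins to lipid, were split 3 above 1 and 3 below. ATG16L1, which directs the conjugation to the membrane, had 983 and 1191 counts and a ratio of 1.24 (1.14 to 1.35). ATG4B, the protease that trims ATG8 proteins, had 1573 and 1399 counts and a ratio of 0.910 (0.846 to 0.979). ATG7, the E1-like enzyme that starts the transfer, had 781 and 654 counts and a ratio of 0.857 (0.771 to 0.952). ATG16L1 and its recruiter WIPI2 therefore lay on opposite sides of 1. The E2-like enzyme ATG3 had 879 and 890 counts. ATG5 and ATG12, which are joined to each other, had ratios of 1.16 (0.9904 to 1.36) and 0.854 (0.725 to 1.00). All 3 intervals held 1.

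The ATG8 family, whose proteins coat the forming autophagosome, held members on both sides. MAP1LC3B, the LC3B gene used to follow autophagosomes, had 1814 and 1376 counts. Its ratio of 0.776 (0.723 to 0.833) lay just outside the fold and passed it with total counts (0.758), DESeq2 size factors (0.765), totals without abundant genes (0.766) or the GC trend removed (0.757). Reads may be shared with its near copy MAP1LC3B2, which had 93 and 58 counts, and the summed ratio was 0.769 (0.718 to 0.824). MAP1LC3B also overlaps FBXO31 on the opposite strand, which had 718 and 809 counts. GABARAPL2 had 1150 and 934 counts and a ratio of 0.831 (0.761 to 0.907). GABARAPL1, in contrast, had 2648 and 2994 counts and a ratio of 1.16 (1.10 to 1.22). GABARAP had 55 and 56 counts, and a same-strand gene listed at 0 in both libraries overlaps it over 2344 bases. A role of the counting in that low value was not tested.

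Of 3 cargo receptors 2 had an interval below 1, and OPTN lay near 1. NBR1, which binds ubiquitinated cargo and peroxisomes (chromosome 17, 43170481 to 43211689), had 938 and 578 counts. Its ratio was 0.631 (0.567 to 0.7001), the lowest among the autophagy members. SQSTM1, the p62 receptor, had 7470 and 6079 counts and a ratio of 0.833 (0.805 to 0.861). SQSTM1 overlaps MGAT4B on the opposite strand over 555 bases, and MGAT4B had 4730 and 4117 counts. The part of shared reads in the SQSTM1 ratio was not tested. OPTN, a receptor in the removal of mitochondria and bacteria, had 1537 and 1613 counts and a ratio of 1.07 (1.00 to 1.15), or 1.05 with total counts. The 3 receptors summed gave 0.851 (0.826 to 0.876).

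Levels between genes were compared per transcript length, as TPM (counts per transcript length, scaled to a common total) from the longest annotated transcript. The hierarchy was steep and nearly the same in both libraries. PSAP was at 2214 and 2642 TPM, CTSZ at 2323 and 2109, and CD63 at 1587 and 1668. These 3 swapped order only between PSAP and CTSZ. CTSB followed at 502 and 342 TPM, below CTSA (352 and 408) and LAMP1 (342 and 371) in the library labelled Ad-Bmal1 though above both in the other. At the lower end were TFEB at 5.40 and 5.29, GABARAP at 3.47 and 3.68 and CTSK at 1.28 and 1.08. CTSB is thus an abundant lysosomal transcript whose place in the order moved, whereas GM2A at 24.8 and 10.9 TPM and NBR1 at 20.8 and 13.3 TPM stand in the lower part of it.

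**Figure D3:**
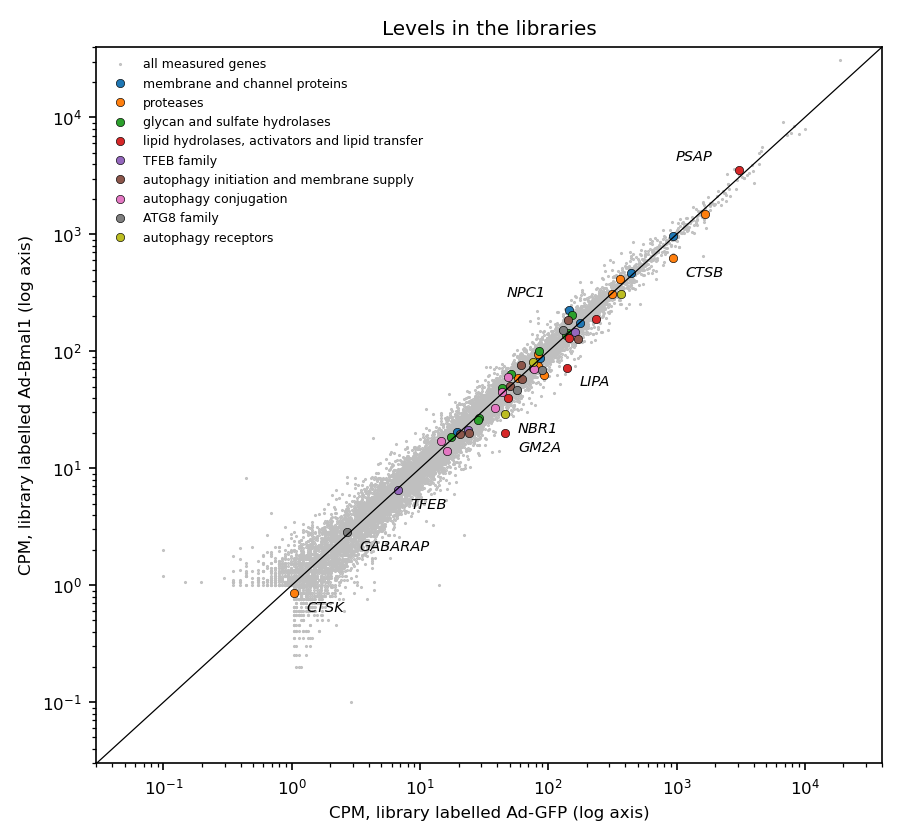
Level of each gene in CPM (log axes), library labelled Ad-GFP across and library labelled Ad-Bmal1 up, with members coloured by role, all measured genes in grey and the line of equal levels. PSAP is the highest member, CTSB, LIPA, NBR1 and GM2A lie below the line and NPC1 above it, at the ratios given in the text.

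Among 105 other genes of these pathways, 102 were measured, 8 (7.84%) were past the fold on the higher side and 10 (9.80%) on the lower, close to the 9.35% and 9.29% of all measured genes. The 18 V-ATPase subunits had 13 ratios above 1 and 5 below, and a summed ratio of 1.07 (1.05 to 1.08). ATP6V1C1 of the cytosolic part had 287 and 372 counts and a ratio of 1.33 (1.13 to 1.55). ATP6V0A1 of the membrane part had 816 and 1055 counts and a ratio of 1.32 (1.21 to 1.45). Removing the trend on length put ATP6V1C1 at 1.25 and ATP6V0A1 at 1.298, no longer past the fold. ATP6V0E2, a small membrane subunit, had 471 and 285 counts and a ratio of 0.619 (0.533 to 0.719). Of the 18 intervals 8 lay above 1 and 3 below. Besides ATP6V0E2 the latter were those of ATP6AP2, with 2685 and 2021 counts and a ratio of 0.770 (0.727 to 0.816) just outside the fold, and ATP6V1H, with 972 and 843 counts and a ratio of 0.887.

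Of 30 other measured hydrolases and membrane proteins 6 (20%) were past the fold on the lower side, where 9.29% of all measured genes were. On the higher side 1 (3.33%) was, where 9.35% of all measured genes were. FUCA1, which removes fucose from glycans, had 412 and 207 counts and a ratio of 0.514 (0.433 to 0.609). SUMF1, which activates all sulfatases, had 655 and 360 counts and a ratio of 0.562 (0.493 to 0.641). The sulfatases among the members, ARSA, ARSB and IDS, did not share that size of difference. CTSF, given above, was the other of the 3 genes of this list whose interval bounds lay farthest from 1.

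In the mannose 6-phosphate route 7 of 9 ratios were above 1. IGF2R, the large mannose 6-phosphate receptor, had 6140 and 11980 counts and a ratio of 1.996 (1.94 to 2.06), just short of 2-fold, and with the length trend removed 1.68. Of the 19 genes of mTORC1, Ragulator and the Rag GTPases, 4 were past the fold on the higher side and 3 on the lower, where 9.35% and 9.29% of all measured genes were. With the trend on length removed, MTOR and RPTOR of the former and RRAGA of the latter were no longer past it. LAMTOR1, which anchors the Ragulator complex to the lysosome, had 1616 and 1068 counts and a ratio of 0.676 (0.625 to 0.731). RRAGA, a Rag GTPase, had 1757 and 1243 counts and a ratio of 0.724 (0.673 to 0.779), or 0.771 without the length trend. MTOR had 1686 and 2279 counts and a ratio of 1.38 (1.298 to 1.47), or 1.22 without the length trend. Of 26 other measured autophagy genes none was past the fold. WDR45B, a relative of WIPI2, had 3638 and 3539 counts and a ratio of 0.995 (0.9501 to 1.04), and VMP1, a scramblase of the endoplasmic reticulum, had 3081 and 2342 counts and a ratio of 0.778 (0.737 to 0.821).

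**Figure D4:**
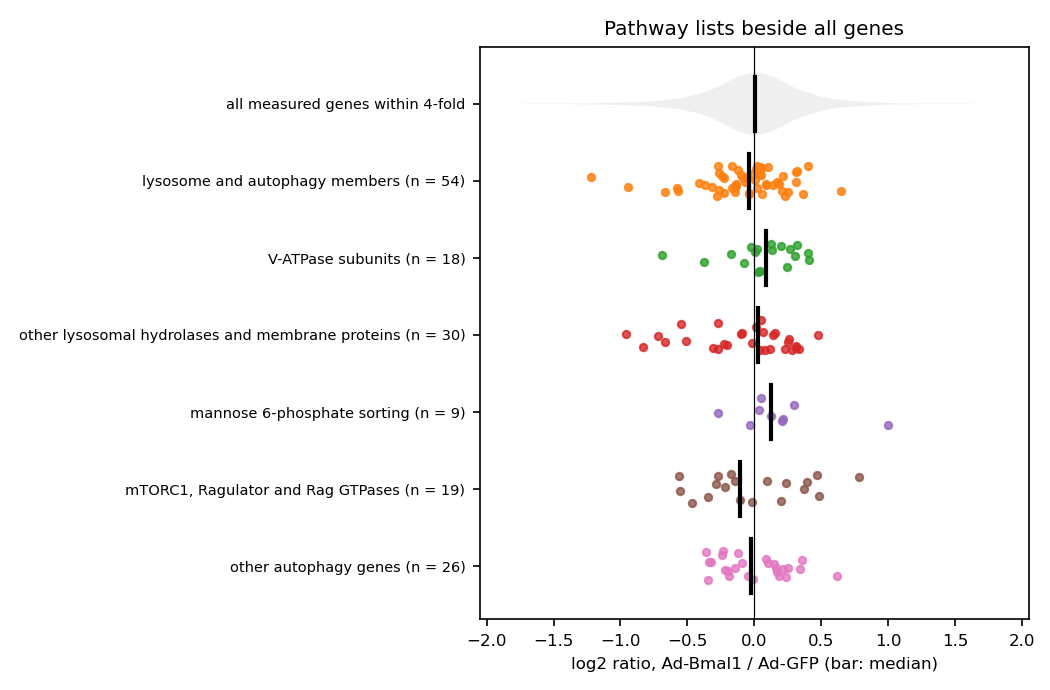
Log2 ratio of each measured gene in the members and in 5 other pathway lists (points), with the list median as a bar. At the top is the distribution over measured genes, drawn without those of the most extreme ratios. The list medians lie between -0.11 and 0.13, and IGF2R is the highest point.

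Across all 13211 measured genes with a transcript length, longer transcripts tended to higher ratios (Spearman's rho 0.24 across genes, which are not independent replicates). Over the 54 members the same measure was -0.02. The rho on GC content was -0.05 over all genes and 0.23 over the members. These are descriptions over genes that share the same 2 libraries. Whether the length trend bears on single ratios was not tested beyond the values given with it removed.

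**Figure D5:**
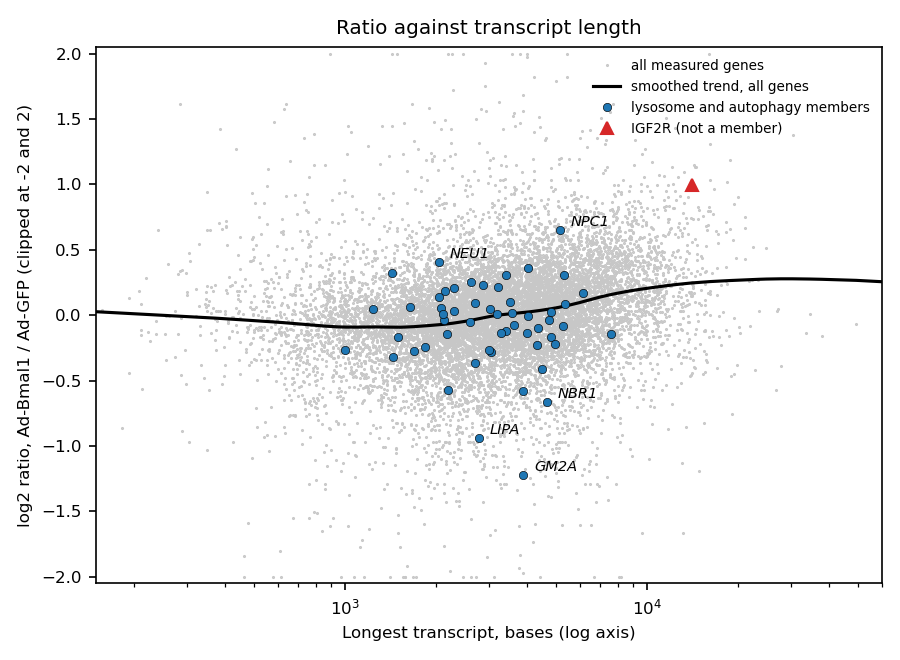
Log2 ratio against transcript length (log axis) for all measured genes and for the members, with the smoothed trend over all genes as a line and IGF2R, no member, as a triangle. Members past the fold on the lower side, such as GM2A, LIPA and NBR1, lie below the line.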

How the data were processed

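Libraries were made from polyadenylated RNA, per the labels' protocols, and the submitters' processing notes name HISAT2 and GRCh38 (hg38). The authors deposited raw counts per gene, whole numbers that were not normalised as far as the values show. How reads were counted, with which annotation and strand setting, is not given in the sources used here. Reads of overlapping genes, antisense genes and near copies therefore cannot be told apart. Groups were taken from the sample titles. Gene names, coordinates and lengths are from GENCODE v29, which held 99.5% of the 58302 identifiers.

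Library sizes were scaled by TMM (edgeR 4.0.16, R 4.3.3), with factors of 1.01 (library labelled Ad-GFP) and 0.988 (library labelled Ad-Bmal1). With 1 library per group no count model could be fitted. Ratios have exact 95% conditional binomial intervals, computed with Python 3.11.15, pandas 2.3.3 and scipy 1.17.1. The code was run on simulated counts that held counting noise alone, as the intervals assume. That run says nothing of variation between cultures or libraries. A gene was measured at 1 CPM or more in at least 1 library. As alternatives, scaling was by total counts, by upper quartile, by the size factors of DESeq2 1.42.0 or by totals that leave out mitochondrial genes and the 20 most abundant ones. Others were no filter, 10 CPM, a 99% interval, folds of 1.5 and 1.2, an interval wholly beyond the fold, protein-coding genes as background and removal of the trend on transcript length (lowess, fraction 0.3, statsmodels 0.14.6). Removal of the GC trend and the 1000-count background were chosen after seeing the data.

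The members and lists were chosen with earlier results of these data known. The rule for full values took every member past 1.3-fold, the 2 with most counts in each role group, the TFEB family and members under 1 CPM. From each other list it took up to 3 genes past the fold with the interval bound farthest from 1, or else the 2 with most counts. RMC1, CCDC69 and other overlapping genes or copies, CTSS, GALNS, ATP6AP2, ATP6V1H, RPTOR and the groups named as put together later were chosen after their values were seen.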

Additional observations from a re-analysis of the deposited data

How the results depend on the processing

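The counts of members past the fold depend most on the fold. At 1.5-fold 1 member was higher and 3 were lower, and at 1.2-fold 6 were higher and 11 lower, against 2 and 6 at 1.3-fold. With the interval wholly beyond 1.3-fold 1 member was higher and 5 lower, since NEU1 and WIPI2 dropped out. With total counts 1 was higher and 7 were lower, with NEU1 at 1.29 and MAP1LC3B at 0.758. Over all measured genes 1237 (9.35%) were higher and 1229 (9.29%) lower, against 1049 (7.95%) and 1439 (10.9%) with total counts. With the interval wholly beyond the fold they were 445 (3.36%) and 375 (2.83%). At 1.5-fold they were 583 (4.41%) and 648 (4.90%), and at 1.2-fold 1879 (14.2%) and 1809 (13.7%). At 10 CPM only 8372 genes were measured, of which 772 (9.22%) were higher and 610 (7.29%) lower. The median log2 ratio of the members lay between -0.07 and -0.03 over the alternatives, and no role group's median changed sign under those run. That of the ATG8 family moved from -0.10 to -0.27 at 10 CPM, where GABARAP was left out. No named ratio past the fold changed direction: GM2A ranged from 0.419 to 0.429, LIPA from 0.508 to 0.530, NBR1 from 0.612 to 0.631, CTSB from 0.654 to 0.670, CTSH from 0.657 to 0.704, WIPI2 from 0.733 to 0.752, NEU1 from 1.29 to 1.39 and NPC1 from 1.501 to 1.57. No paired analysis was possible because each group has 1 library. Depth limits what can be said of CLN3, CTSK, GABARAP and TFEB, and variation between cultures was not measured.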

Other observations

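The 5 Ragulator subunits, which tether mTORC1 to the lysosome, all had ratios below 1. The intervals of 4 lay below 1, where 21.6% of all measured genes had such an interval. Of the 5658 genes with at least 1000 counts, 1560 had one. The Ragulator group was put together after its values were seen. The summed ratio of the 5 subunits was 0.817 (0.788 to 0.846), while MTOR and RPTOR, the kinase and its scaffold, had ratios of 1.38 and 1.3996. With the trend on transcript length removed MTOR and RPTOR were at 1.22 and 1.29, no longer past 1.3-fold. The same removal moved the median log2 ratio of the 5 subunits from -0.27 to -0.22, and LAMTOR1 from 0.676 to 0.720. The transcripts of MTOR and RPTOR are 8677 and 6408 bases long, and the median over the Ragulator subunits is 1154. Of the 4 Rag GTPases, also put together as a group after their values were seen, 3 were below 1 and 1 above.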
